A study of Mus musculus with 2 samples.

Results

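The genes described here encode the actin of non-muscle cells and proteins that bind it. They are the actins Actb and Actg1, the beta-thymosins Tmsb4x and Tmsb10, the profilins Pfn1 and Pfn2, the depolymerising proteins Cfl1 (cofilin) and Dstn (destrin, also called actin depolymerising factor), the cyclase-associated protein Cap1 and the filament-binding protein Dbn1 (drebrin). These 10 genes were taken by name from the 45578 genes of a table of ribosome footprints, and 1 transcript stood for each gene, the one whose counts in both libraries added up to the most. All 10 were found, each under 1 gene identifier, and all 10 passed a filter of a mean of at least 10 counts.

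Actin is a globular protein that assembles into filaments, and growing neurites, growth cones and young dendritic spines depend on the turnover of those filaments. Thymosins hold actin monomers in reserve, profilins deliver monomers to growing filament ends, cofilin and destrin sever and take apart filaments, Cap1 helps cofilin and recharges monomers, and drebrin binds along filaments and is known for its place in dendritic spines. A ribosome footprint is the piece of messenger RNA that a ribosome shields from nuclease, so the density of footprints on a coding sequence is used as a measure of how much of the protein is being made.

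Both libraries came from brains of control mice of the Taiwanese spinal muscular atrophy strain at postnatal day 5. The mice were heterozygous for Smn and carried the human SMN2 transgene (Smn+/-; SMN2tg/0) on an FVB background, so no library is from a mouse with both Smn copies. Ribosomes were captured with RiboLace, beads that carry a puromycin analogue and bind ribosomes engaged in translation. The labels name 2 biological replicates of this 1 group and no other condition, so the comparisons are between genes within a library and between the libraries. The labels do not identify the animal behind each replicate, and the p-values given here measure only the counting error of these 2 libraries. They do not measure the spread between replicates.

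Replicate 1 held 343552 counts over all genes and replicate 2 held 120282, a ratio of 2.86. Levels are given as CPM, counts scaled to a common library size after TMM scaling, a correction for the makeup of each library. A single count equalled 2.71 CPM in the first library and 8.93 CPM in the second. Levels of different genes are compared as density, which is CPM per kilobase of coding sequence, unless another length is named. The tissue was checked against marker genes. The 4 neuronal markers summed to 0.580% and 0.598% of counts in replicates 1 and 2, the 4 astrocyte and radial glia markers to 0.267% and 0.261%, and the 4 erythroid markers to 0.408% and 0.384%. Each of these markers was above 0 in both libraries, whereas the liver marker Alb was at 0 in both. The 4 erythroid markers had close counts, from 343 to 362 in replicate 1 and from 108 to 121 in replicate 2. Whether they share fragments, which would raise their sum, was not tested.

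The 10 genes together held 3054 counts in replicate 1 and 1020 in replicate 2. Their share was 0.889% in replicate 1, with a 95% Wilson interval from 0.858 to 0.921, and 0.848% in replicate 2, with one from 0.798 to 0.901. The intervals overlapped, and the mean share was 0.868% ± 0.029 (SD, n = 2). Among the counts of protein-coding genes alone, the share was 1.09% in replicate 1 and 1.16% in replicate 2. That is the opposite order, and the 95% Wilson intervals overlapped there as well. Actb and Actg1 alone made up 58.9% of the members' counts in replicate 1 and 54.9% in replicate 2. By density every one of the 10 lay above the median of the 4294 protein-coding genes ranked, which was 63.0 CPM per kilobase in replicate 1 and 60.7 in replicate 2. Their ranks by mean density ran from 4 for Tmsb10 to 1395 for Cap1, and 5 of the 10 ranked within the first 39 (Tmsb10, Tmsb4x, Actb, Cfl1 and Actg1). Whole-brain footprints cannot tell apart a gene used by fewer cells, one with less RNA per cell and one with fewer ribosomes per RNA.

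**Figure D1:**
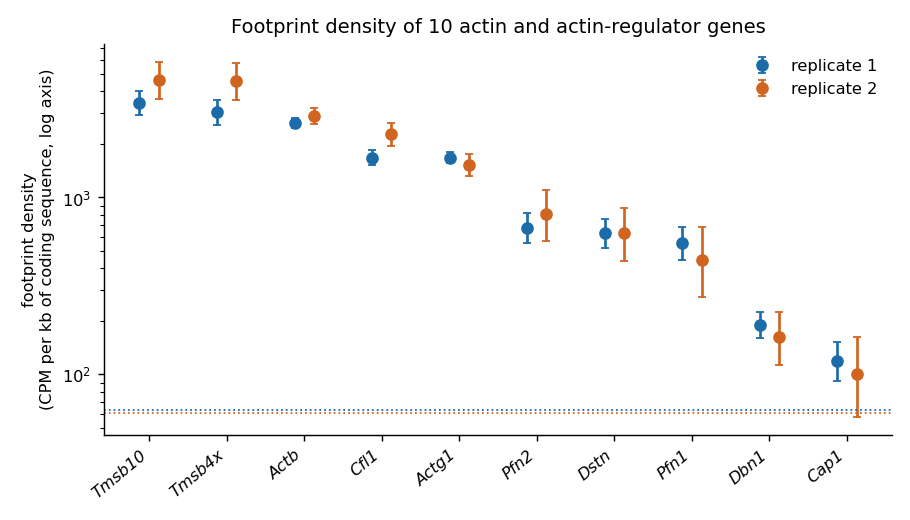
Footprint density of each gene (CPM per kilobase of coding sequence, log axis) in replicate 1 and replicate 2, in order of the mean, with 95% Poisson intervals that cover counting error only and dotted lines at the median of all ranked coding genes in each library. Mean densities run from 4031 for Tmsb10 to 110 for Cap1, and the 2 replicates lie close to each other compared with the distance between the top and the bottom of the order.

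Actb, cytoplasmic beta-actin (ENSMUSG00000029580), had 1098 counts in replicate 1 and 367 in replicate 2. Its representative transcript, Actb-001, is 1920 nucleotides long with a coding sequence of 1128. Its density was 2638 CPM per kilobase in replicate 1 and 2905 in replicate 2, or 2772 ± 189 (SD, n = 2), which placed it ninth among the ranked coding genes. Actg1, cytoplasmic gamma-actin (ENSMUSG00000062825), had 700 and 193 counts on a coding sequence of the same length, and its density was 1682 and 1528 CPM per kilobase, or 1605 ± 109 (SD, n = 2). The lower Actb value lay above the higher Actg1 value.

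Per coding length, the Actb to Actg1 ratio was 1.57 in replicate 1 (exact 95% interval 1.43 to 1.73) and 1.90 in replicate 2 (1.59 to 2.28). Of the 4 pairs of related genes compared in each library, this was 1 of 2 that differed in both, with exact binomial p-values, adjusted over the 8 tests, of 2.16e-20 and 3.42e-13. The coding sequences of the actins are nearly identical, and a fragment may have been counted for every transcript that it matched, since the counting rule is not given in the sources used here. How many fragments belong to Actb or Actg1 alone was not measured.

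The other actins of the genome were counted in the same way. Acta1, skeletal muscle actin, had 70 counts in replicate 1 and 22 in replicate 2, while the skeletal muscle markers Ckm and Mylpf had 0 in both libraries. Acta2, smooth muscle actin, had 37 and 14 counts, whereas the smooth muscle genes Tagln and Myh11 had 0 and 4 counts in replicate 1 and 1 and 0 in replicate 2, and the mural marker Rgs5 had 22 and 2. How many of these Acta1 and Acta2 counts came from fragments shared with Actb or Actg1 was not tested. Actc1, Actg2 and Actbl2 had at most 3 counts in either library. No gene bore a member's symbol followed by -ps, a mark that some pseudogenes carry. Pseudogenes with other names would not be found this way, so the search does not show that the members have none. Actg-ps1, a processed pseudogene named with an older symbol of Actg1 and looked up after the values were seen, had 163 and 58 counts on 408 nucleotides. That is 400 counts per kilobase of transcript in replicate 1, against 359 for Actg1-001.

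The isoforms of the actins differ in how much untranslated sequence they carry. Actb-007, which has 795 coding nucleotides and no annotated 3' untranslated region, held 677 and 240 counts. Per kilobase of transcript that was 728 and 258, above the 572 and 191 of Actb-001, which carries 683 nucleotides of 3' untranslated region. The shortest isoform, Actb-009, an Actb processed transcript of 241 nucleotides with no coding sequence, held 4 and 3 counts, or 16.6 and 12.4 per kilobase. A second Actb processed transcript, Actb-003, held 661 and 224 counts although it is annotated without a coding sequence. Per kilobase that was 739 and 251, close to the values of Actb-007.

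**Figure D2:**
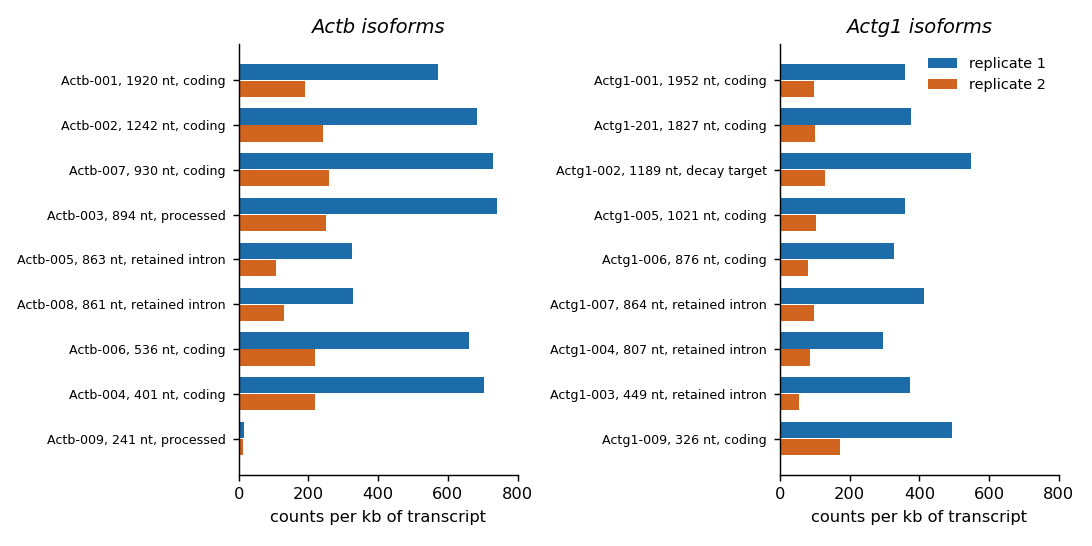
Counts per kilobase of transcript for the 9 isoforms of Actb and the 9 of Actg1 in each replicate (bars from 0), longest isoform at the top, labelled with length and annotated class. Bars of replicate 2 are shorter throughout because the values are not scaled for depth, Actb-009 stands near 0 in both libraries, and annotated non-coding isoforms carry counts of the same order as coding ones.

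For Actg1, the isoform Actg1-001 and a shorter one share their coding length and differ by 124 nucleotides of 5' and 1 of 3' untranslated region. Actg1-001 had 13 more counts in replicate 1 and 9 more in replicate 2. On the shorter isoform the counts amounted to 609 and 163 per kilobase of coding sequence. A difference between isoform counts is not the count of the added stretch, since it fell below 0 for some isoforms of Tmsb10 and Cap1. The Actg1 isoform annotated as a target of nonsense-mediated decay, Actg1-002, held 650 and 155 counts, or 92.9% and 80.3% of those of Actg1-001. Counts of single isoforms may share fragments and do not say which isoform was translated.

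Tmsb10 (thymosin beta 10, ENSMUSG00000079523) and Tmsb4x (thymosin beta 4, ENSMUSG00000049775) had the highest densities of the 10 genes. Tmsb10 had 171 counts in replicate 1 and 70 in replicate 2, on a coding sequence of only 135 nucleotides. Its density was 3433 and 4630 CPM per kilobase, or 4031 ± 847 (SD, n = 2). Tmsb4x had 151 and 69 counts on the same coding length, a density of 3031 and 4564 CPM per kilobase, or 3798 ± 1084 (SD, n = 2). Both were higher in replicate 2.

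The difference between the thymosins did not pass the test in either library. The Tmsb4x to Tmsb10 ratio was 0.883 in replicate 1 (exact 95% interval 0.705 to 1.11) and 0.986 in replicate 2 (0.697 to 1.39), with adjusted exact binomial p-values of 0.331 and 1. These intervals do not show the levels to be equal. By density in the 2 libraries, the genes nearest to Tmsb10 among 614 coding genes with at least 100 counts over both libraries were Tubb2a, Tubb2b and Tuba1a, which encode tubulins, the subunits of microtubules. The distance on the log2 scale was 0.040 for Tubb2a, 0.14 for Tubb2b and 0.18 for Tuba1a, a likeness that rests on 2 values per gene.

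The place of the thymosins above the actins depends on the length used. Their coding sequences take up a small part of the transcript, 135 of 623 nucleotides in Tmsb10-003 and 135 of 768 in Tmsb4x-001. Divided by the full transcript, Actb was the densest of the 10 at 1550 and 1707 CPM per kilobase, and Tmsb10 stood at 744 and 1003, below Actb, Cfl1 and Actg1 by the mean. The table gives no counts per region, so the part of thymosin footprints that lay outside the coding sequence was not measured. Isoforms that differ in these regions were compared. Tmsb4x-003, with 363 more nucleotides of 5' and 197 fewer of 3' untranslated region than Tmsb4x-002, differed from it by 2 counts in replicate 1 and by 1 in replicate 2. Both have an annotated coding length of 153 nucleotides, not the 135 of Tmsb4x-001. Tmsb10-002 was 120 nucleotides longer than Tmsb10-001 and had 17 and 7 fewer counts.

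Cfl1, the main cofilin of non-muscle cells (ENSMUSG00000056201), had 424 counts in replicate 1 and 175 in replicate 2. Its density was 1680 and 2285 CPM per kilobase, or 1982 ± 428 (SD, n = 2), which ranked 28. The replicate range of Cfl1 overlapped that of Actg1. Dstn (ENSMUSG00000015932) had 116 and 35 counts and a density of 631 and 628 CPM per kilobase, or 629 ± 2.58 (SD, n = 2). Its replicates were the closest of the 10 genes.

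Cfl1 was denser than Dstn in both libraries, by a ratio of 2.66 in replicate 1 (exact 95% interval 2.16 to 3.30) and 3.64 in replicate 2 (2.52 to 5.39). The exact binomial p-values adjusted over the 8 tests were 4.67e-23 and 9.15e-15. The single Cfl1 transcript of the table has an annotated coding length of 684 nucleotides, longer than the 498 of Dstn and the 501 of the muscle cofilin Cfl2. With the coding length of Dstn, the Cfl1 density became 2307 and 3138 CPM per kilobase, a range that takes in both Actb values. Cfl2, named here from the list of related proteins, had 49 and 18 counts and a density of 265 and 321 CPM per kilobase.

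Pfn2, the profilin best known from neurons (ENSMUSG00000027805), had 105 counts in replicate 1 and 38 in replicate 2, and a density of 673 and 802 CPM per kilobase, or 737 ± 91.6 (SD, n = 2). Pfn1, the profilin of most cell types (ENSMUSG00000018293), had 86 and 21 counts on the same coding length of 423 nucleotides. Its density was 551 and 443 CPM per kilobase, or 497 ± 76.1 (SD, n = 2). Both Pfn1 values lay below both Pfn2 values.

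The profilins did not pass the adjusted threshold in either library. The Pfn1 to Pfn2 ratio was 0.819 in replicate 1 (exact 95% interval 0.609 to 1.10, adjusted exact binomial p = 0.257) and 0.553 in replicate 2 (0.308 to 0.966, adjusted exact binomial p = 0.058). The direction turned when the full transcript length was used, since Pfn2-001 holds 1322 nucleotides of 3' untranslated region and Pfn1-001 only 274. The mean log2 ratio was -0.57 per coding length and 0.87 per transcript length. Isoforms of Pfn2 that differ mainly in the 3' untranslated region had close counts. Pfn2-002 has 1203 more nucleotides of 3' and 134 fewer of 5' untranslated region than Pfn2-004 and the same coding length, and it had 5 more counts in replicate 1 and 2 more in replicate 2.

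**Figure D3:**
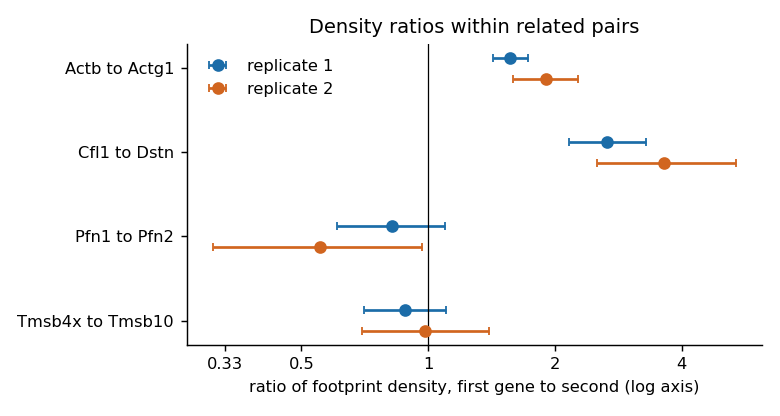
Ratio of footprint density per coding length, first gene to second, within 4 pairs of related genes (log axis), with exact 95% intervals for each replicate. The intervals of the actin and the cofilin pairs lie to the right of 1 in both libraries, those of the thymosins include 1 in both, and that of the profilins includes 1 in replicate 1 only.

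Dbn1 (ENSMUSG00000034675) and Cap1 (ENSMUSG00000028656) had the lowest densities of the 10. Dbn1 had 140 counts in replicate 1 and 36 in replicate 2 on a coding sequence of 1983 nucleotides. Its density was 191 and 162 CPM per kilobase, or 177 ± 20.7 (SD, n = 2). Cap1 had 63 and 16 counts on 1425 coding nucleotides, and a density of 120 and 100 CPM per kilobase, or 110 ± 13.8 (SD, n = 2). The ranges of Dbn1 and Cap1 did not overlap, but their counting intervals overlapped in replicate 2.

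Drebrin exists in an embryonic form and in an adult, neuron-specific form that carries an added stretch. In the table, Dbn1-001 and Dbn1-002 have the same untranslated lengths and differ by 138 coding nucleotides, a multiple of the codon length. The longer Dbn1-001 had 123 and 43 counts, and the shorter Dbn1-002 had 140 and 36. The longer form was thus 17 counts lower in replicate 1 and 7 counts higher in replicate 2, and the libraries did not give the same order. Dbn1-002 tied with Dbn1-009 for the highest summed count, and the longer transcript was used. The Cap1 isoforms Cap1-001, Cap1-002 and Cap1-003, which differ only in the 5' untranslated region, had 57, 63 and 62 counts in replicate 1 and 18, 16 and 16 in replicate 2.

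Set against the 2 actins, the regulators covered a wide range of densities. The 2 thymosins together had 1.50 times the density of Actb and Actg1 together in replicate 1 (exact 95% interval 1.32 to 1.69) and 2.07 times in replicate 2 (1.71 to 2.50), and these intervals did not overlap. The 2 profilins together stood at 0.283 of the actins (0.243 to 0.329) and 0.281 (0.211 to 0.368). Cfl1 stood at 0.389 and 0.515, and Dstn at 0.146 and 0.142. The lowest were Dbn1 at 0.044 and 0.037 and Cap1 at 0.028 and 0.023. The ratios of the profilins and of Dstn moved least between the libraries. All these ratios are per coding length, and by the full transcript each thymosin lay below both actins by the mean. Whether fragments that matched both actins entered the actin sum more than once was not tested.

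Between the libraries, Cfl1 was the 1 gene of the 10 that passed the test. An exact binomial test compared the reads of the 2 libraries gene by gene, with Benjamini-Hochberg adjustment over all 5436 genes past the count filter. It called 4.14% of those genes and 0.956% of the 4392 protein-coding genes among them. Cfl1 was 1.36-fold higher in replicate 2 (exact 95% interval 1.13 to 1.63), with a log2 ratio of 0.44, a counting SE of 0.13 and an adjusted exact binomial p of 0.0232. The call was lost with scaling by library totals (adjusted exact binomial p = 0.539, log2 ratio 0.24), which moved the median log2 ratio of all genes tested from 0.0041 to -0.20. It was also lost with a filter of at least 1 count in each library (adjusted exact binomial p = 0.773, log2 ratio 0.26) and when coding genes were taken alone (adjusted exact binomial p = 0.0825), where the log2 ratio was 0.46. The call was lost as well when a biological coefficient of variation of 0.2 was allowed for. At that setting no member was called, against 131 of all 5436 genes and 8 of the 4392 protein-coding genes. With 1 call in 10 genes that depended on the scaling and on the genes tested, the members were not shown to differ from other coding genes.

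The other 9 genes did not pass the adjusted threshold. Tmsb4x had a log2 ratio of 0.59 (counting SE 0.21, adjusted exact binomial p = 0.133) and Tmsb10 one of 0.43 (SE 0.20, adjusted exact binomial p = 0.459), and these with Cfl1 were the 3 genes at an unadjusted p under 0.05. Over all genes tested 522 of 5436 were under that p, and among protein-coding genes 247 of 4392. Actb had a log2 ratio of 0.14, with a fold between 0.976 and 1.24 by its 95% interval, the narrowest of the 10. Actg1 had one of -0.14, with a fold between 0.771 and 1.07. The direction of Actb turned to -0.07 with library totals and to -0.04 with the filter of at least 1 count. Dstn at -0.0083, Pfn1 at -0.31, Pfn2 at 0.25, Cap1 at -0.26 and Dbn1 at -0.24 had intervals that included no change. The interval of Cap1 reached from 0.451 to 1.47, so its counts at this depth are compatible with any fold within that range. Taking the Dbn1 isoform with the longest coding sequence turned its ratio to 0.21.

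**Figure D4:**
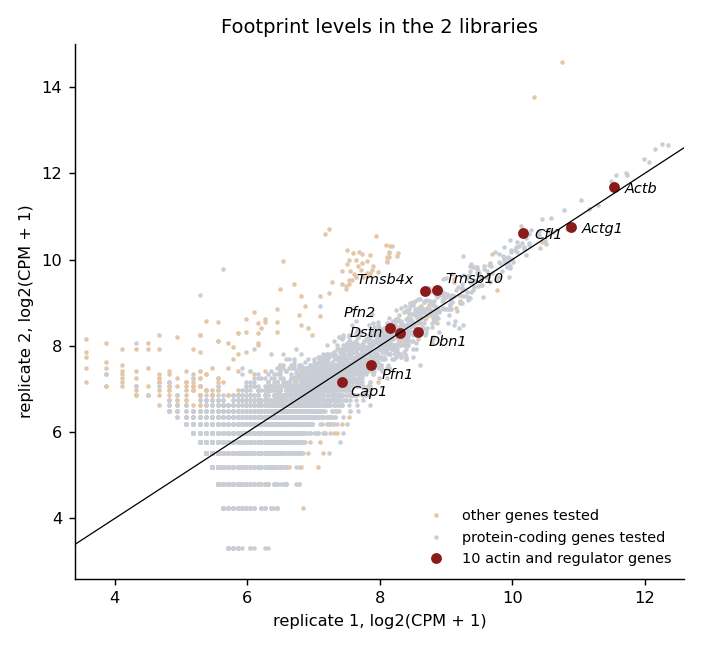
Level in replicate 1 and replicate 2, as log2(CPM + 1), of the 5436 genes past the count filter, with the 10 genes described here in dark red and a line of equal levels. Tmsb4x, Tmsb10 and Cfl1 lie above the line, with log2 ratios of 0.59, 0.43 and 0.44, and Pfn1 and Cap1 lie below it, with -0.31 and -0.26.

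Other genes of the actin pathway were taken from 9 lists, of which 118 of 121 genes matched by symbol and 66 passed the count filter. Of these 66 genes, 2 were called, both higher in replicate 2 and both from the list of crosslinkers and side-binding proteins. The background is the 4.14% of all genes and 0.956% of protein-coding genes given above, and 217 of the 225 calls over all genes were higher in replicate 2. The median log2 ratio of the 66 was -0.043, against -0.016 over all protein-coding genes tested and 0.065 over the 10 members. Marcks, a membrane-linked protein that binds and crosslinks actin, was counted 412 times in replicate 1 and 198 times in replicate 2, a log2 ratio of 0.66 (adjusted exact binomial p = 1.25e-05). Rdx (radixin), a link between actin and the cell membrane, was counted 34 and 25 times, a log2 ratio of 1.27 (adjusted exact binomial p = 0.0285). The Rdx call was lost with library totals (log2 ratio 1.06, adjusted exact binomial p = 0.141). It was also lost among coding genes alone (log2 ratio 1.29, adjusted exact binomial p = 0.129). The Marcks call was lost in neither. With a biological coefficient of variation of 0.2 neither gene was called, against 131 of all 5436 genes and 8 of the 4392 protein-coding genes.

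The machinery that starts and shapes filaments stood at lower densities than most of the members. The median of the mean density was 1171 CPM per kilobase over the 10 members. Over the tested members of the lists it was 202 for the 8 genes of the Arp2/3 complex, which nucleates branched filaments, and 61.9 for the 8 nucleation-promoting and WAVE complex genes that switch it on. It was 42.2 for the 4 formins and other elongators, a list of which 3 genes were not analysed here, and 54.3 for the 9 capping and severing genes. The tropomyosins and non-muscle myosins had a median of 136 over 7 genes. None of the genes on these 5 lists passed the adjusted threshold between the libraries, and 1 of them, Capzb, had an unadjusted exact binomial p under 0.05, at a log2 ratio of -1.10. With edgeR's exact test at a preset coefficient of variation none was called either, against 8 of the 4392 protein-coding genes tested. With counts summed over isoforms 5 were called (Arpc1b, Arpc3, Abi1, Cobl and Coro1a, named after their values were seen). The share of all genes called with isoforms summed is not given here, so these 5 calls have no background to be read against. By summed counts the Arp2/3 list held 0.153% and 0.112% of counts, with 95% Wilson intervals of 0.141 to 0.167 and 0.095 to 0.133 that did not overlap. Shares are of library totals, a scale on which the median log2 ratio of all genes tested was -0.20.

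The densest genes of each list by the mean of the replicates were as follows. In the Arp2/3 complex, Actr2 stood at 315 CPM per kilobase and Arpc4 at 283. In the WAVE complex, Brk1 stood at 271 and Wasf1 at 115 CPM per kilobase. Among elongators Evl stood at 77.2 and Daam1 at 50.3, and among capping proteins and their relatives Tmod2, which caps pointed ends, stood at 213 and Capzb at 138 CPM per kilobase. Marcks and its relative Marcksl1 were by far the densest of the crosslinkers, at 1551 and 1365 CPM per kilobase, close to Actg1. Myl6 and Myl12b, light chains of non-muscle myosin, stood at 715 and 356. Cotl1, which is related to cofilin, stood at 537 CPM per kilobase, and of the other actins Acta1 stood at 170 and Acta2 at 99.3.

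**Figure D5:**
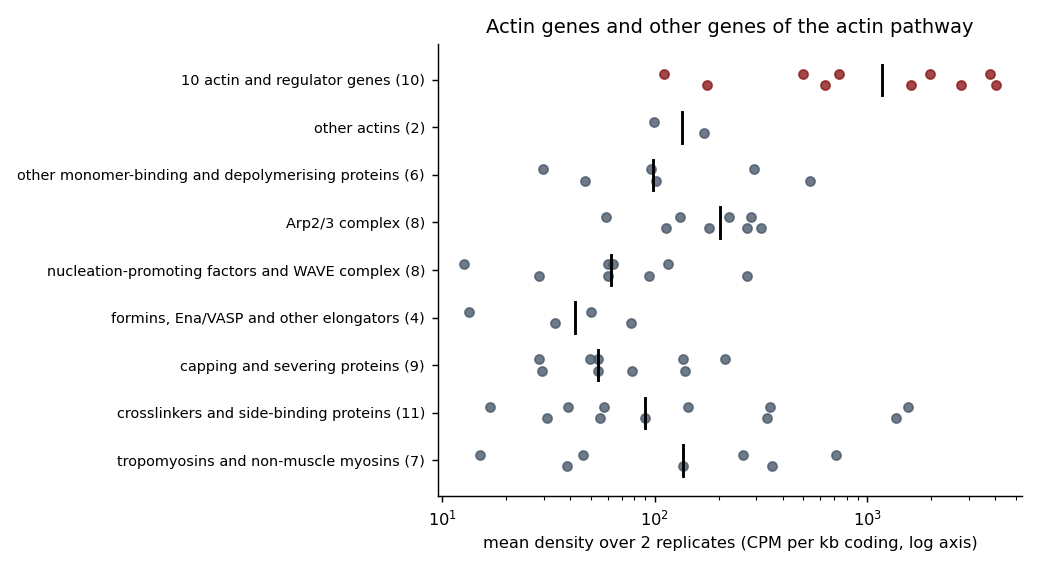
Mean footprint density over the 2 replicates (CPM per kilobase of coding sequence, log axis) of the 10 genes described here and of the genes with a coding length past the count filter on 8 lists of the actin pathway, 1 point per gene and a bar at the median, with the number of genes in brackets. The members span 110 to 4031 and 3 of them, both thymosins and Actb, lie at 2772 or above, while Marcks at 1551 is the highest gene of the other lists.

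The actin genes are classic targets of serum response factor, which binds the CArG box, and the RefSeq promoters (GRCm38.p6, 250 bases before to 50 after the annotated start) were searched for that motif on both strands. A promoter window was found for 9 of the 10 genes, and the gene without one was not searched. A box outside the window would be missed, so a gene without a match is not shown to lack one. A CArG box occurred in 1 of the 9, Actg1, and in 1.81% of the 27025 genes with a window. The stretch around it is shown because it is the single match among the members, with the motif in capitals, on the minus strand at chr11:120348551-120348610.
Actg1: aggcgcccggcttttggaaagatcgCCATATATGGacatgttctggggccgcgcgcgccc
The motif begins 90 bases before the annotated start. A match is a description of the letters in this window, and the footprint counts do not bear on binding there.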

How the data were processed

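The authors deposited 1 table of whole-number footprint counts per transcript for both libraries, not normalised, with the lengths of transcript, coding sequence and untranslated regions. Trimmomatic 0.36, Bowtie2 2.2.6, SAMtools and the build GRCm38.p4 are named in the submitters' processing notes, without their roles. The counting rule, annotation release and any ribosomal RNA filter are not given in the sources used here. Columns were matched to replicates by the number in their names. Overlapping isoforms of a gene each carry counts, and a fragment was assumed to be counted for each transcript it matched. This assumption was not tested.

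Gene counts were scaled with TMM (edgeR 4.0.16), for which genes needed 10 counts on average. The factors were 1.07 and 0.931. The log2 ratio is replicate 2 over replicate 1 on log2(CPM + 1), which understates changes of low genes. The exact binomial tests are 2-sided, call at an adjusted p under 0.05 and compare libraries, not conditions. With 1 group, no model of conditions could be fitted. The code was tested on simulated data. Intervals cover counting error only, since PCR copies cannot be told from separate molecules without molecular identifiers and fragments may have been counted repeatedly. Library totals, DESeq2 1.42.0 size factors, other count filters, isoform rules and lengths, and edgeR's exact test at a biological coefficient of variation of 0.2 were alternatives. The counts over all pathway genes cover 9 lists, of which 1 is not reported here on its own. Named beside the members were the 2 densest genes of each other list, every called gene, and the 3 genes nearest in density to the densest member. The members and lists were chosen with earlier results of these data known. All 10 member identifiers had the same symbol in the name table.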

Additional observations from a re-analysis of the deposited data

How the results depend on the processing

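No paired analysis was possible because the series holds a single group. Leaving out a replicate gives no test between libraries. The 1 member called (Cfl1) remained 1 with DESeq2 size factors, a mean of at least 50 counts (9 members tested, without Cap1) and the longest coding isoform. It became 0 with library totals, with at least 1 count in each library, among coding genes alone and with the preset coefficient of variation. The preset coefficient called 8 of the 4392 protein-coding genes tested. The 1 member called became 4 (Actb, Cfl1, Tmsb4x, Tmsb10) with isoforms summed, which may count a fragment several times. The share of all genes called with isoforms summed is not given here, so these 4 calls are not shown to be particular to the members. The 2 pathway genes called became 1 with library totals, at least 1 count, a mean of at least 50 counts and coding genes alone. Marcks was the gene kept each time. At a mean of 50 counts only 14 pathway genes were tested and Rdx was not among them. The 2 calls became 0 with the preset coefficient of variation. With isoforms summed they became 8 of 83 genes tested (5 higher, 3 lower), again without a share over all genes to set beside them. The members' share of 0.868% became 1.55% with isoforms summed and 1.13% of coding counts, and lay between 0.848 and 0.889% when one replicate was left out.

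The mean log2 density ratio of Pfn1 to Pfn2, -0.57, reversed to 0.87 with full transcript length and lay between -0.86 and -0.29 when one replicate was left out, passing the threshold on replicate 2 alone, where p-values were adjusted over 4 tests instead of 8. That of Tmsb4x to Tmsb10, -0.10, became -0.40 with full transcript length and -0.35 with the longest coding isoform. Neither passed the threshold in both libraries. The value became -0.40 and passed the threshold with isoforms summed. That sum takes in 3 transcripts of Tmsb4x and 4 of Tmsb10 and may count a fragment several times. The pass therefore does not show that the thymosins differ. The Cfl1 to Dstn ratio of 1.64 became 2.83 with full transcript length and 2.10 at equal coding length, an alternative chosen after seeing the data. The Actb to Actg1 and Cfl1 to Dstn pairs stayed past the threshold in both libraries under every alternative run. Where no cause is named, the cause was not tested. The depth of replicate 2 limits Cap1, Pfn1, Dstn, Dbn1 and Pfn2, each with fewer than 50 counts there.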

Other observations

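Gm9844, a gene of unnamed function found on the list of the densest coding genes after the values were seen, has an annotated coding length of 135 nucleotides, the same as Tmsb10 and Tmsb4x. It was counted 75 times in the first library and 33 times in the second, a density of 1506 and 2183 CPM per kilobase, and ranked 32. Whether it shares fragments with the thymosins was not tested.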
